A study of Mus musculus with 17 samples.

Results

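Gene expression after ovariectomy was compared in skeletal progenitors of the fracture callus, using the 4 callus arrays whose title codes hold 2 letters, condition first and population second, of 17 arrays in the series. OB and OS were mBCSPs and mSSCs from the callus of ovariectomized (OVX) mice. SB and SS were mBCSPs and mSSCs from the callus of sham-operated mice. All were female C57BL/6 mice with a femoral fracture, and no other allele or agent was named for them. By the study's methods surgery was done on 8-week-old mice, the femur was broken 6 weeks later, and callus was taken on day 7 after fracture. Each condition and population had 1 array, and the labels do not say how many mice it holds or whether the 2 populations of a condition came from the same mice.

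Ovariectomy removes the main source of estradiol in females and is widely used as a model of the menopause. Estradiol acts mostly through the nuclear receptors encoded by Esr1 and Esr2. The mouse skeletal stem cell (mSSC) gives rise to the bone, cartilage and stromal progenitor (mBCSP), which is set apart by CD105, the product of Eng. The sort used CD45, Ter119 and Tie2, markers of blood and endothelial cells, as well as alphaV integrin, Thy1, 6C3, CD105 and CD200. A callus in its first weeks is rich in cartilage that bone later replaces.

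Values are log2 probe set signals, and a difference is the OVX array minus the sham array of the same population, so that 1 is a 2-fold difference in signal. Eng signal was 9.10 in OB and 7.69 in OS, against 9.48 in SB and 8.21 in SS, so it was higher in both mBCSP arrays than in either mSSC array. Prrx1, a transcription factor of limb mesenchyme, was at 12.87 in OB and 12.80 in OS, against 12.76 in SB and 12.74 in SS. Ptprc, which encodes CD45, was at 6.58 in OB and 8.31 in OS, against 7.09 in SB and 7.77 in SS, and was thus not at the floor of 5.951 on any of these arrays. Array pairs had Spearman correlations of 0.957 to 0.977 over genes, which is a description only. The lowest were those of SS, at 0.957 with SB, 0.958 with OB and 0.959 with OS. The other arrays correlated with each other at 0.963 to 0.977.

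Of 14504 genes tested, 339 (2.34%) differed by at least 1 in mBCSPs and 864 (5.96%) in mSSCs. The mSSC difference uses SS, the array of lowest correlations, and the part of that array in the larger count was not tested. In both populations 27 genes (0.186%) were higher by at least 1 in OVX callus and 31 (0.214%) were lower, 58 (0.4%) together, while 22 (0.152%) passed that size with opposite signs. Without a size limit, 25.8% of genes were higher in both populations, 30.1% lower in both and 44.1% of mixed sign. The standard deviation over genes was 0.384 for the mBCSP difference and 0.512 for the mSSC difference.

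**Figure D1:**
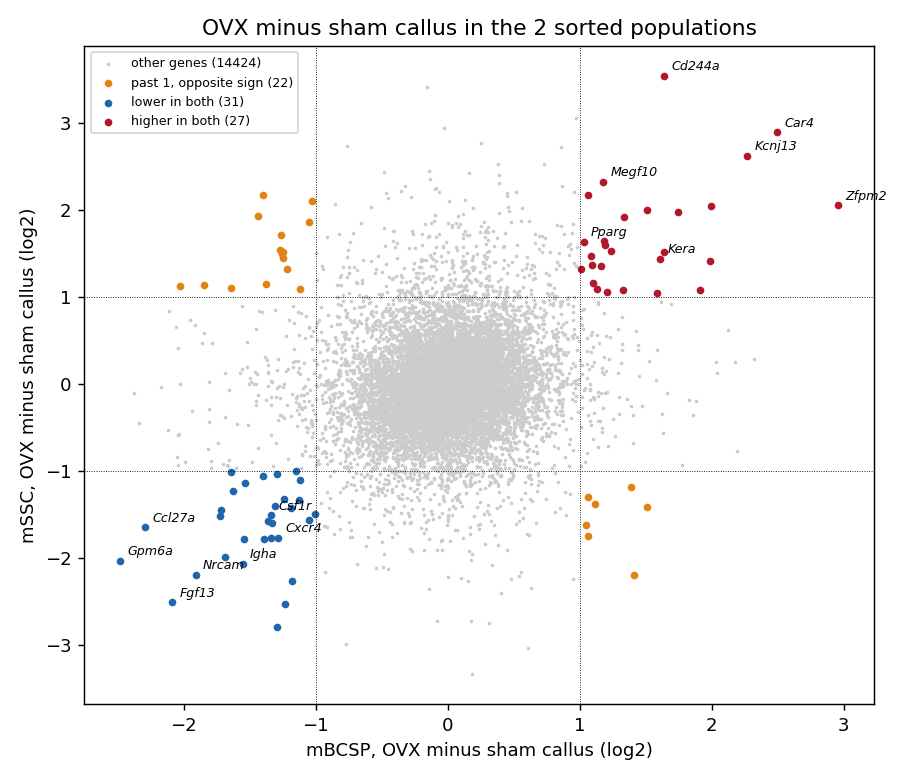
Difference between OVX and sham callus in mBCSPs (horizontal axis, log2) and in mSSCs (vertical axis, log2), 1 point per gene of the 14504 tested, with dotted lines at a difference of 1. The 27 genes higher in both populations lie at the upper right, the 31 lower in both at the lower left, and 22 pass the lines with opposite signs.

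No gene passed an adjusted p of 0.05 in limma (0 of 14504, 0%), and the smallest adjusted p was 0.253. At an unadjusted p under 0.05 there were 293 genes, 150 higher and 143 lower in OVX callus. With 1 array per condition and population, these p-values set the mean difference against how mSSC minus mBCSP varied over the arrays of the series, not against replicate mice. A fit of the 4 arrays alone, with 1 residual degree of freedom, called 0 genes on the genes tested here, but 64 once the filter on dim genes was set on these 4 arrays, and 101 when they were also normalized alone. The agreeing genes below are therefore described by their values, and the rule that chose them used those same values.

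Car4, a carbonic anhydrase held at the cell surface, had the largest of the smaller differences. Its signal was 8.86 in OB and 9.21 in OS, against 6.36 in SB and 6.31 in SS, and the OVX and sham arrays did not overlap. That is 5.64-fold in mBCSPs and 7.43-fold in mSSCs, with a mean log2 difference of 2.69 (SE 0.71, limma adjusted p = 1). Kcnj13, an inwardly rectifying potassium channel, was at 8.22 in OB and 8.90 in OS, against the floor of 5.95 in SB and 6.28 in SS. Zfpm2, a cofactor of GATA factors, was at 8.91 in OB and 8.56 in OS, against the floor of 5.95 in SB and 6.50 in SS, with a mean log2 difference of 2.51 (SE 0.35, limma adjusted p = 0.253). Casr, the calcium-sensing receptor, was at 8.91 in OB and 8.55 in OS, against 7.40 in SB and 6.55 in SS. For these 4 genes both OVX arrays lay above both sham arrays, as they did for 2159 of all genes tested (14.9%), and the choice of agreeing genes largely fixes that order.

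The lists of fibrous matrix, cartilage and protease genes, with 20, 21 and 14 tested, held 0 agreeing genes. Of all genes 0.4% agreed, a share at which lists of this size would hold few or none. Outside these lists, Kera encodes keratocan, a small leucine-rich proteoglycan that binds collagen. Its signal was 11.48 in OB and 12.60 in OS, against 9.87 in SB and 11.16 in SS, a difference of 1.61 in mBCSPs and 1.44 in mSSCs. Within each condition the mSSC array was the higher one. Chst5, a sulfotransferase, was at 8.90 in OB and 9.34 in OS, against 7.32 in SB and 8.29 in SS. Cpz, a carboxypeptidase that binds Wnt proteins, differed by 1.13 in mBCSPs and 1.09 in mSSCs. Megf10, a receptor for the engulfment of dying cells, was at 8.10 in OB and 8.52 in OS, against 6.92 in SB and 6.19 in SS, with a mean log2 difference of 1.75 (SE 0.33, limma adjusted p = 0.778). Cd244a, a receptor of natural killer and other blood cells, had the widest gap between populations, with 8.29 in OB and 9.50 in OS, against 6.65 in SB and the floor of 5.95 in SS.

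Pparg, the nuclear receptor that directs adipocyte formation, was at 9.05 in OB and 9.0 in OS, against 8.02 in SB and 7.36 in SS. The differences were 1.03 in mBCSPs and 1.64 in mSSCs, and the mean was 1.33 (SE 0.35, limma adjusted p = 1). Adipoq, the adipocyte hormone adiponectin, was at 7.52 in OB and 7.11 in OS, against 6.20 in SB and 6.34 in SS. Of 7 adipocyte genes tested, 4 were higher in both populations, 1 was lower in both and 2 were mixed, with a median difference of 0.049 against -0.016 over all genes. Slc38a6, an amino acid transporter, was at 9.82 in OB and 10.54 in OS, against 8.63 in SB and 8.93 in SS. Zfp229, a zinc finger gene, was at the floor in both sham arrays. It was higher in OVX callus by at least 2.24-fold in mBCSPs and 2.57-fold in mSSCs. The smaller difference was 1.01 for A2m and 1.03 for Pparg, just inside the limit, and 0.98 for Slfn10-ps and 0.97 for Itprid2, just outside it.

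The remaining genes higher in both populations had less clearly shared roles. Cmtr2, which methylates the mRNA cap, was at 8.78 in OB and 8.90 in OS, against 7.15 in SB and 7.38 in SS, and was among the few whose further probe set also passed a difference of 1. Spata5l1, an ATPase, was at 7.61 in OB and 8.14 in OS, against 6.27 in SB and 6.22 in SS. Slfn4, a Schlafen gene known from myeloid cells, was at 7.86 in OB and 7.93 in OS, against the floor of 5.95 in SB and 6.85 in SS. Rbm12b1, an RNA-binding protein, differed by 1.99 in mBCSPs and 1.42 in mSSCs. Dmkn, a secreted protein of skin, differed by 1.33 in mBCSPs and 1.09 in mSSCs. A2m, the protease inhibitor alpha-2-macroglobulin, was at 7.42 in OB and 8.43 in OS, against 6.41 in SB and 7.12 in SS. The other members were 1700109K24Rik, Gm1976, Gm5113, Dennd11, Stx3, Pcdhb9, 4930515G01Rik, Zfp316 and Cdyl2. Only 4930515G01Rik of the 27 had overlapping OVX and sham arrays, which the choice of these genes largely fixes, with 9.54 in OB and 8.36 in OS, against 8.45 in SB and 6.88 in SS.

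**Figure D2:**
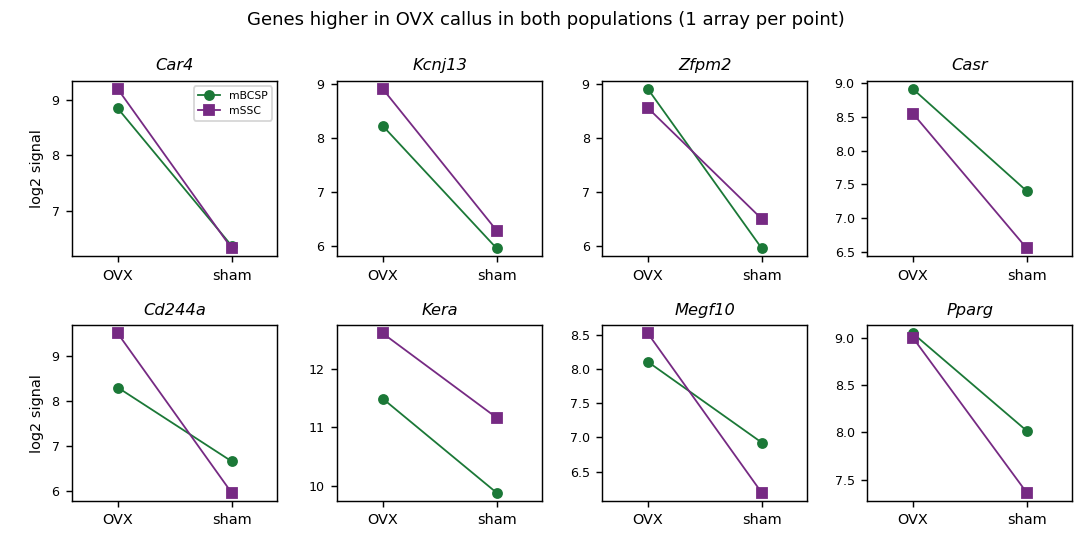
Log2 signal of 8 genes higher in OVX callus, with OVX at the left and sham at the right of each panel, circles for mBCSPs and squares for mSSCs, 1 array per point and a separate vertical scale in each panel. Both lines slope down toward sham in every panel, as for Car4, at 8.86 and 9.21 in OVX arrays and 6.36 and 6.31 in sham arrays.

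Among the genes lower in both populations were several known from neurons and their axons, a grouping made after the values were seen. Fgf13, a member of the fibroblast growth factor family that stays inside the cell, was at 6.25 in OB and 6.13 in OS, against 8.33 in SB and 8.64 in SS. The mean log2 difference was -2.30 (SE 0.39, limma adjusted p = 0.514). Gpm6a, a membrane glycoprotein of neurons, was at 6.16 in OB and the floor of 5.95 in OS, against 8.64 in SB and 7.98 in SS. Nrcam, a neuronal cell adhesion molecule, was at 6.90 in OB and 6.92 in OS, against 8.81 in SB and 9.11 in SS. Nefl, the neurofilament light chain, was at 7.61 in OB and 6.41 in OS, against 8.94 in SB and 8.18 in SS. For these 4 genes both OVX arrays lay below SB and SS, as they did for 2692 of all genes tested (18.6%), an order that the choice of genes largely fixes. In none of the 4 genes did both OVX arrays lie below both sham callus arrays with 3-letter codes, SIB and SIS, which were at 5.95 and 7.23 for Fgf13, 5.95 and 5.95 for Gpm6a, 7.35 and 6.36 for Nrcam, and 6.11 and 5.95 for Nefl. Of the 5 nerve sheath genes tested, 4 were lower in both populations and 1 was mixed, with a median of -0.462. Of all genes, 30.1% were lower in both, with a median of -0.016, and 5 genes are few.

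A further group, likewise made after the values were seen, is known from macrophages and other blood cells. Csf1r, the receptor for the macrophage growth factor CSF1, was at 8.44 in OB and 8.70 in OS, against 9.78 in SB and 10.20 in SS. C1qa, a complement chain made by macrophages, was at 7.45 in OB and 8.51 in OS, against 8.78 in SB and 10.11 in SS. Cxcr4, the receptor for CXCL12, was at 8.64 in OB and 8.47 in OS, against 9.93 in SB and 10.23 in SS. Itgb2, an integrin chain of white blood cells, was just inside the limit, with differences of -1.01 in mBCSPs and -1.50 in mSSCs. Igha, an antibody heavy chain constant region, was at 7.15 in OB and 8.16 in OS, against 8.70 in SB and 10.22 in SS. For these genes the mean difference had an SE of 0.49 to 1.06 and an adjusted p of 1 in limma. Not all agreeing genes known from blood cells were lower. Cd244a was higher by 1.64 in mBCSPs and 3.54 in mSSCs, and Slfn4 by 1.91 in mBCSPs and 1.09 in mSSCs.

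Of the marker lists of blood and endothelial cells, those of macrophages, neutrophils and endothelial cells were mostly lower in OVX callus. Those of erythroid and T or NK cells leaned the same way by smaller amounts, at low signal. Those of B cells, platelets and osteoclasts were not mostly lower. Over all genes, 25.8% were higher in both populations and 30.1% lower in both, with a median of -0.016. Of 15 macrophage genes tested, 9 were lower in both populations and 2 higher in both, with a median of -0.448, and the 9 include Csf1r and C1qa from above. The mean signal of the list was 8.137 in OB and 8.706 in OS, against 8.572 in SB and 9.218 in SS. Lyz2, lysozyme, was at 11.23 in OB and 12.30 in OS, against 12.12 in SB and 13.18 in SS. Of 11 neutrophil genes, 7 were lower in both and 0 higher in both, with a median of -0.558. Of 14 endothelial genes, 9 were lower in both and 0 higher in both, with a median of -0.501, and Cdh5, the endothelial cadherin, was at 9.0 in OB and 6.93 in OS, against 10.32 in SB and 7.88 in SS. Of 9 B cell genes, 2 were higher in both and 3 lower in both, with a median of -0.041, and of 7 platelet genes 3 were higher in both and 2 lower in both, with a median of 0.117. Of 5 T and NK cell genes, 4 were lower in both and 0 higher in both, with a median of -0.182. The mean signal of that list was near the floor of 5.951, with 6.59 in OB, 6.57 in OS, 6.75 in SB and 7.0 in SS. Erythroid genes had 4 of 7 lower in both and 2 higher in both, with a median of -0.189. Their mean signal was 7.41 in OB and 7.63 in OS, against 7.5 in SB and 7.68 in SS. Osteoclast genes had 3 of 7 lower in both and 2 higher in both, with a median of -0.087. Ptprc, the gene of the CD45 gate, differed by -0.52 in mBCSPs and 0.55 in mSSCs. In such bulk arrays fewer cells of a type and less RNA per cell cannot be told apart, and the part of these markers in the other results was not tested.

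**Figure D3:**
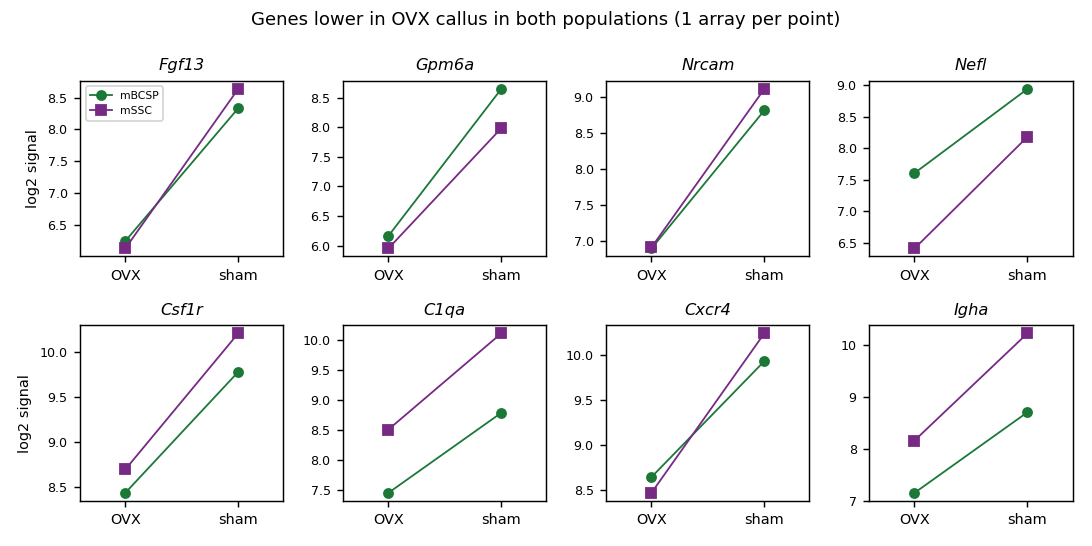
Log2 signal of 8 genes lower in OVX callus, with OVX at the left and sham at the right of each panel, circles for mBCSPs and squares for mSSCs, 1 array per point and a separate vertical scale in each panel. Both lines slope up toward sham in every panel, as for Csf1r, at 8.44 and 8.70 in OVX arrays and 9.78 and 10.20 in sham arrays.

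The remaining genes lower in both had no single role. Peg10, an imprinted gene derived from a retrotransposon, was at 8.66 in OB and 8.26 in OS, against 10.38 in SB and 9.78 in SS. Nadk2, the mitochondrial NAD kinase, was at 7.45 in OB and 7.74 in OS, against 8.99 in SB and 9.52 in SS. Ccl27a, a chemokine, was at 6.12 in OB and 6.05 in OS, against 8.41 in SB and 7.69 in SS, and near-identical copies of this gene may share its probes. Pibf1, a centrosomal protein, was at 7.86 in OB and 7.03 in OS, against 9.16 in SB and 9.83 in SS, and Cep70, likewise centrosomal, was at 6.04 in OB and 6.39 in OS, against 7.76 in SB and 7.83 in SS. Plxnc1, a semaphorin receptor, differed by -1.23 in mBCSPs and -2.53 in mSSCs. Slc14a1, a urea transporter, was at 8.24 in OB and 7.89 in OS, against 9.42 in SB and 10.16 in SS. Kcns1, a potassium channel subunit, was at 9.26 in OB and 9.13 in OS, against 10.37 in SB and 10.23 in SS. Bst1, a surface enzyme of marrow stroma and myeloid cells, was at 6.62 in OB and 6.66 in OS, against 7.91 in SB and 7.69 in SS. Rassf4, a Ras-association protein, differed by -1.36 in mBCSPs and -1.58 in mSSCs. The rest of this group were Gm9958, A030001D20Rik, 4933424G05Rik, 2810029C07Rik, Proser2, Kbtbd11, Vps25, Zfp975, Psma8 and Particl. Gm26782 was at the floor in both OVX arrays and was lower there than in sham callus by at least 3.22-fold in mBCSPs and 3.97-fold in mSSCs. Just inside the limit, the smaller difference was 1.0 in size for Particl and 1.01 for Itgb2, and just outside it was 0.97 for Depp1 and 0.96 for Tmem87a.

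Of the 58 agreeing genes, 30 had a further probe set and 22 had one bright enough to pass the filter. Such a probe set had the same direction in both populations for 15 of them and passed a difference of 1 in both for 3, Cmtr2, Csf1r and Plxnc1. A gene counted here if any 1 of its bright further probe sets met the condition. Another such probe set of Csf1r differed by 0.01 in mBCSPs and 0.09 in mSSCs. Of those of Plxnc1, 1 differed by 0.51 and 0.35, and another by 0.62 and 0.14, against the direction of the one used. Stx3, a membrane fusion protein among the genes higher in both, had a mean difference of -0.70 when the probe set of widest range was used. A bright further probe set gave -0.43 in mBCSPs and 1.30 in mSSCs for Bst1, and 0.75 and -1.04 for Rassf4. It gave 0.10 and -0.23 for Slc14a1, and 0.65 and -0.31 for Cd244a. For Nadk2, 1 gave 0.16 and 0.49, while another was lower in both. The values given above for a gene are those of the 1 probe set used.

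The receptors for estradiol were read from the genes that the study names. Esr1 signal was 9.61 in OB and 9.11 in OS, against 8.58 in SB and 8.48 in SS, with differences of 1.03 in mBCSPs and 0.63 in mSSCs and a mean of 0.83 (SE 0.32, limma adjusted p = 1). With the probe set of widest range the mean difference of Esr1 was -0.30, so its direction depends on the probe set. Esr2 was at 7.82 in OB and 7.55 in OS, against 7.23 in SB and 7.79 in SS, and the OVX and sham arrays overlapped. Bmp1, a protease that trims procollagens, was at 12.65 in OB and 11.93 in OS, against 12.11 in SB and 11.37 in SS. Ihh, the hedgehog ligand of growing cartilage, differed by 0.15 in mBCSPs and 0.28 in mSSCs, less than the standard deviation over genes in each population, and its mean difference was -1.43 with the title form left out of the fit. Fgfr2, a fibroblast growth factor receptor, differed by -0.28 in mBCSPs and -0.39 in mSSCs. Osm, the cytokine oncostatin M, differed by -0.09 in mBCSPs and -0.29 in mSSCs. Fbn2, a fibrillin, differed by 0.05 in mBCSPs and 0.27 in mSSCs, and Col14a1, a fibril-associated collagen, by 0.49 in mBCSPs and 0.23 in mSSCs. Of the 8 genes named by the study and tested, 5 were higher in both, 2 lower in both and 1 mixed, and 0 passed the adjusted p in limma. Of 17 genes listed for their known response to estrogen, 6 were higher in both, 6 lower in both and 5 mixed.

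Cartilage genes were mostly lower by small amounts. Of 21 tested, 15 (against 30.1% of all genes) were lower in both populations, 2 higher in both and 4 mixed, with a median of -0.177 against -0.016 over all genes. Col9a2, a chain of type IX collagen, was at 11.80 in OB and 11.78 in OS, against 12.85 in SB and 12.61 in SS. Ucma, a secreted cartilage matrix protein, was at 13.15 in OB and 13.19 in OS, against 13.90 in SB and 14.01 in SS. Col11a2, a chain of type XI collagen, differed by -0.69 in mBCSPs and -0.79 in mSSCs. Acan, the main cartilage proteoglycan, differed by -0.15 in mBCSPs and -0.11 in mSSCs. Fibrous matrix genes ran the other way, with 15 of 20 higher in both populations (against 25.8% of all genes) and 1 lower in both, and a median of 0.144. Among them Col6a3, a chain of type VI collagen, differed by 0.30 in mBCSPs and 0.33 in mSSCs.

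Hypoxia and immediate early genes were mostly lower as well. Over all genes, 25.8% were higher in both populations and 30.1% lower in both, with a median of -0.016. Of 14 hypoxia and glycolysis genes, 11 were lower in both and 1 higher in both, with a median of -0.232, and Pfkl, a phosphofructokinase, was at 11.52 in OB and 11.20 in OS, against 12.04 in SB and 11.73 in SS. Of 15 immediate early genes, 11 were lower in both and 2 higher in both, with a median of -0.212, and Junb, an AP-1 subunit, was at 10.84 in OB and 11.15 in OS, against 11.45 in SB and 11.72 in SS. Fos, another AP-1 subunit, was higher in both, by 0.10 in mBCSPs and 0.19 in mSSCs. Of 10 niche and osteoclast-directing genes, 7 were higher in both and 1 lower in both, with a median of 0.285. Tnfsf11, which encodes the osteoclast factor RANKL, was at 10.92 in OB and 11.22 in OS, against 9.84 in SB and 10.85 in SS. Kitl, the stem cell factor, was at 9.95 in OB and 10.05 in OS, against 9.50 in SB and 8.77 in SS. Sema3e, a secreted guidance cue, was at 7.57 in OB and 7.72 in OS, against 6.64 in SB and 6.23 in SS. Signaling lists were more evenly split, with 6 of 13 hedgehog genes higher in both and 5 lower in both, and 4 of 17 BMP genes higher in both and 7 lower in both. Gli1, a transcription factor and target of hedgehog signaling, was at 8.38 in OB and 8.26 in OS, against 9.04 in SB and 8.88 in SS. Id1, a target of BMP signaling, was at 9.72 in OB and 10.19 in OS, against 10.49 in SB and 10.82 in SS. In none of the 37 lists did a gene pass the adjusted p in limma.

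**Figure D4:**
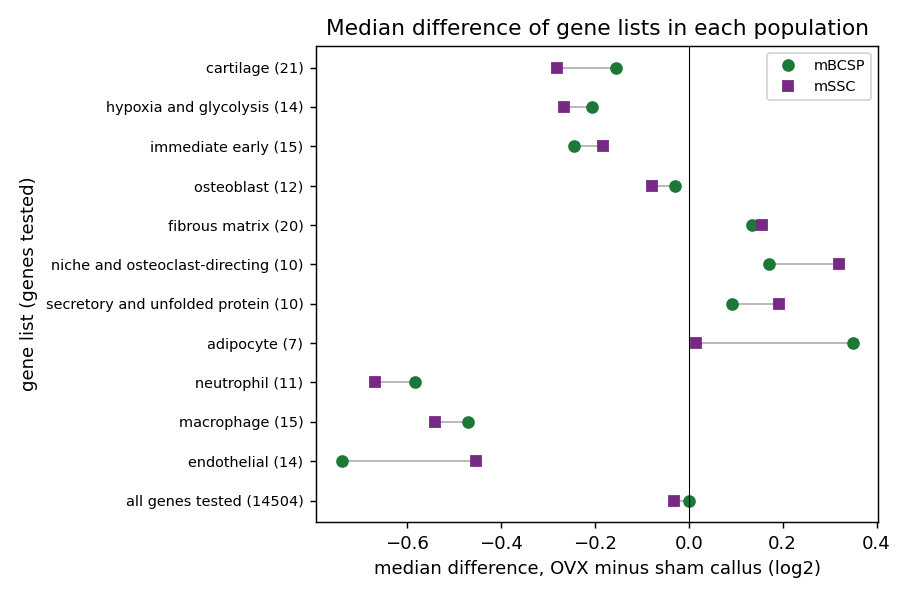
Median log2 difference, OVX minus sham callus, over the tested genes of 11 lists and over all genes, with circles for mBCSPs and squares for mSSCs. The neutrophil, macrophage and endothelial lists lie lowest, and the niche and osteoclast-directing list lies at 0.171 in mBCSPs and 0.32 in mSSCs.

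In callus of OVX mice given estradiol (EB and ES), levels are given beside those above, since a difference from OVX would reuse OB and OS. Kcnj13 was at 6.81 in EB and 6.10 in ES, and Casr at 7.11 in EB and 7.54 in ES. Car4 was at 8.88 in EB and at the floor in ES. Others of the genes higher in both stayed nearer the OVX than the sham array of each population. Kera was at 11.29 in EB and 12.25 in ES, and Megf10 at 7.86 in EB and 7.63 in ES. Pparg was at 8.84 in EB and 8.52 in ES, and Cd244a at 8.06 in EB and 8.95 in ES. Csf1r was at 10.84 in EB and 10.65 in ES, and Cxcr4 at 10.60 in EB and 11.64 in ES. The macrophage list was higher there, with a mean of 9.73 in EB and 9.99 in ES, against 8.14 in OB, 8.71 in OS, 8.57 in SB and 9.22 in SS. The neutrophil mean was 12.1 in ES, against 9.16 in OB, 9.90 in OS, 9.60 in SB and 10.5 in SS. In EB it was 10.1, within the range of those arrays. The B cell mean was 7.96 in EB and 8.27 in ES, against 7.69 in SS. The platelet mean, 8.21 in EB and 8.15 in ES, did not stand apart from 8.30 in OS and 7.96 in SB. The part of these lists in the levels of Csf1r and Cxcr4 was not tested. Nrcam was at 6.73 in EB and 6.97 in ES, close to the OVX arrays.

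The series holds 4 more callus arrays with 3-letter codes. OIB and OIS are OVX by title and source but sham with fracture by treatment tag, and SIB and SIS are sham. Because of that conflict the differences OIB minus SIB and OIS minus SIS are a description of arrays by title, not a comparison of OVX with sham. In them, 17 of the 27 genes higher in both were higher again in both populations (63%, against 27.2% of all genes), and Cd244a, Megf10 and Slfn4 passed 1 in both (11.1%, against 2.88% of all genes). Of the 31 genes lower in both, 10 were lower again in both (32.3%, against 44.5% of all genes) and 12 were higher in both (38.7%, against 27.2%). Of these 31, 3 passed 1 lower in both (9.68%, against 2.01% of all genes) and 6 passed 1 higher in both (19.4%, against 2.88%). Cxcr4 was at 12.70 in OIB and 13.28 in OIS, against 11.22 in SIB and 10.58 in SIS, opposite to the 2-letter arrays. Blood cell lists differed between these arrays too. The neutrophil mean was 12.1 in OIB and 13.3 in OIS, against 10.9 in SIB and 10.7 in SIS. The macrophage mean was 8.6 in OIB and 9.71 in OIS, against 7.89 in SIB and 7.90 in SIS. The platelet mean was 7.79 in OIB and 8.31 in OIS, against 7.82 in SIB and 7.73 in SIS. The part of these lists in Cd244a, Slfn4 and Cxcr4 was not tested. Zfpm2 was at 8.10 in SIB and 7.78 in SIS, well above both 2-letter sham arrays. Against all 4 sham callus arrays, both OVX arrays lay higher for 19 of the 27 genes and lower for 17 of the 31. The same held for 7.09% and 8.16% of all genes, a base that does not allow for the choice of genes. SB and SS were used in that choice, and 26 of the 27 and 31 of the 31 already lay beyond both. Of all 2159 genes with both OVX arrays above SB and SS, 1029 lay above all 4 sham arrays. Of the 2692 with both below SB and SS, 1184 lay below all 4. Whether the agreeing genes differ from these shares was not tested.

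**Figure D5:**
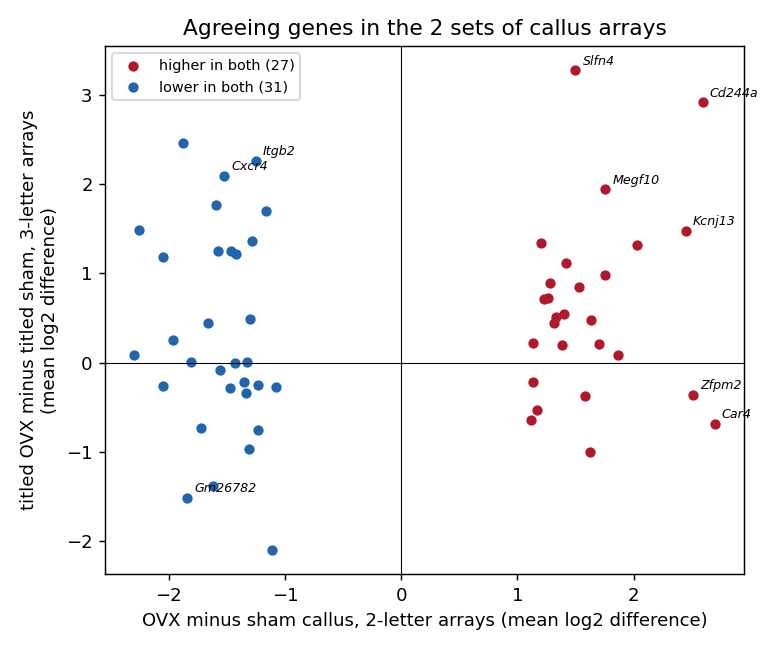
Mean log2 difference of the 58 agreeing genes in the 2-letter arrays (OVX minus sham, horizontal axis) and in the 3-letter arrays (titled OVX minus titled sham, vertical axis), 1 point per gene. Genes higher in the 2-letter arrays lie mostly above 0, and those lower in them lie on both sides of 0.

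Promoters of the agreeing genes were searched for letters that estrogen receptors and AP-1 are known to bind. RefSeq (GRCm38.p6) gave a promoter, 250 bases before to 50 after a start, for 21 genes higher in both and 19 lower in both. The full estrogen response element (GGTCA and TGACC, 3 bases apart) was in 0 of 21 and 0 of 19, and in 0.0258% of all promoters searched. The half-site AGGTCA, on either strand, was in 2 of 21 and 4 of 19, against 15.6% of all. The AP-1 letters TGACTCA, on either strand, were in 3 of 21 and 2 of 19, against 4.9% of all. Stretches with a match are shown for 1 gene higher and 1 gene lower in OVX callus, with the match in capitals, because Pparg is the nuclear receptor described above and Galnt15, a glycosyltransferase, holds both kinds of letters with 1 base shared.
Pparg, plus strand, chr6:115361096-115361141: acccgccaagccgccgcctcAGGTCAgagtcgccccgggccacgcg
Galnt15, plus strand, chr14:32029020-32029071: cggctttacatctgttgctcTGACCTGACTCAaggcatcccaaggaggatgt
Galnt15 signal was 6.59 in OB and 7.07 in OS, against 7.98 in SB and 8.86 in SS. A match is a description of letters only.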

How the data were processed

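Affymetrix mouse arrays measured the RNA of sorted mSSCs and mBCSPs. The authors deposited log2 probe set signals, 1 column per array. The methods name dChip and Gene Expression Commons, while the submitters' processing notes name MAS5 with no version, so which tool made the values is not settled. Of 45101 probe sets, 64 controls were left out, 34945 had 1 symbol, 932 several and 9160 none. The 17 arrays were quantile normalized, and values below the 20th percentile were set to it (a floor of log2 5.951). The probe set of highest mean stood for a gene. A gene was tested if 2 or more arrays reached the 40th percentile (log2 7.198), which kept 14504 of 18193. limma 3.58.1 in R 4.3.3 (lmFit, eBayes with trend, Benjamini-Hochberg) used all 17 arrays, with terms for group within title code form and for population, leaving 7 residual degrees of freedom. Simulated data were used only to check that the fit recovers a known, large mean difference. They do not show its power or error rate at the differences seen here. The number of arrays limits the precision.

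Named genes were those the study names, up to 15 agreeing genes in each direction by the smaller difference, up to 5 in each direction of smallest p, and up to 4 of smallest p per list. Others were named after their values were seen. Members and the 37 lists were chosen with earlier results of these data known. Alternatives covered normalization, floor, filter, probe set choice, the arrays and terms in the fit, and leaving out each array.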

Additional observations from a re-analysis of the deposited data

Results flagged for a closer look

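In 22 genes the OVX minus sham difference passed 1 in size in both populations with opposite signs, beside 58 in which the signs agreed. Cxadr, a cell junction receptor, was at 6.74 in OB and 9.12 in OS, against 8.18 in SB and 7.18 in SS. Pcp4l1 was at 7.81 in OB and 6.93 in OS, against 6.4 in SB and 9.12 in SS. Both genes were chosen after their values were seen, and with 1 array in each condition and population the difference between the populations was not tested.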

How the results depend on the processing

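The counts of agreeing genes (27 higher, 31 lower, 22 opposite) stayed within 1.5 times under other normalizations, no floor, no filter and a filter on the mean of the 4 arrays. With the probe set of widest range they were 49, 60 and 45, and 54 of the 58 genes were shared. A limit of 0.5 gave 268, 321 and 292, a limit of 2 gave 3, 2 and 0, and asking for a further probe set past 1 gave 1 higher and 2 lower.

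limma's count of 0 depended on the filter in the smallest fit. The 4 arrays alone called 0 of 14504 genes with a prior of 2.64 degrees of freedom, 1267 at an unadjusted p under 0.05. Normalized alone with the filter set on them, they called 101 of 13049 with a prior of 11.1. In 2 settings chosen after seeing the data, the filter alone gave 64 calls of 13014, and normalization alone, on the genes tested in the main comparison, gave 0. With no filter 1 gene was called. When OIB and OIS were counted as OVX, with title form a term apart from group, 2 were called (Megf10 and Gm26782). Leaving out each array in turn gave 0 calls every time, and the other fits also gave 0.

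Single genes changed sign as follows. With the probe set of widest range Stx3 was -0.70 and Esr1 -0.30, and with the 4 arrays normalized alone Fbn2 was -0.061. With the title form left out Slfn4 was -0.11 and Ihh -1.43. The fit with OIB and OIS counted as OVX also made title form a term apart from group, so arrays of both forms set the difference. In it Galnt15 was 0.087, Cxcr4 0.28, Plxnc1 0.29, Bst1 0.27, Itgb2 0.51, Fbn2 -0.81, Osm 1.15, Col14a1 -0.56, Lyz2 0.50, Tyrobp 0.45 and S100a8 0.68. Leaving out single arrays of the 4, Fbn2 was -0.046 without the sham mSSC array and at most 0.37 (without the sham mBCSP array), Osm was -0.47 without the OVX mBCSP array and 0.091 without the OVX mSSC array, and Esr2 was -0.16 without the sham mBCSP array and 0.50 without the sham mSSC array. No paired analysis was possible because the labels give no replicate numbers shared between groups, and population was a term of the fit. The cause of the other changes was not tested. Signals near the floor limit folds to bounds.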
